A study of Bos taurus with 2 samples.

Results

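The genes that write, erase and protect DNA methylation were examined in RNA-Seq values of bovine embryos after knockdown of CDKN1C, an imprinted inhibitor of the cell cycle. The set held 10 genes named by symbol: the methyltransferase genes DNMT1, DNMT3A, DNMT3B and DNMT3L, their partner UHRF1, the TET dioxygenase genes TET1, TET2 and TET3, and the imprint keepers TRIM28 and ZFP57. Of these, 8 carried their own symbol among the 21209 gene symbols of the series, and each had a single locus. TET1 was found under the entry LOC513640, whose number is the gene ID of TET1 in the RefSeq gene table of assembly ARS-UCD2.0. It is described beside the others, but counts of members refer to the 8 found by symbol unless TET1 is named. ZFP57, a zinc finger protein that binds methylated imprinting control regions and recruits TRIM28, was not analysed here. Both groups were embryos produced by in vitro fertilization, and each was 1 pool with 1 library. The CDKN1C-siRNA-injected pool came from zygotes that received siRNA against CDKN1C in the cytoplasm, and the sham-injected pool came from zygotes punctured by the needle without siRNA. Thus the sham pool controls for the puncture but not for the presence of an siRNA, and the methods do not give the number of embryos or the stage separately for the sequenced pools.

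In mammals, DNMT3A and DNMT3B place new methyl groups on cytosines, and DNMT3L, which has no catalytic activity of its own, stimulates them. DNMT1 copies the methylation pattern to the new strand after replication, guided there by UHRF1, which recognises half-methylated CpG sites. The TET enzymes oxidise methylated cytosine as a step towards its removal. Most methylation inherited from the gametes is lost before the blastocyst stage and is then written anew, whereas imprinted regions keep their parental methylation through this period with the help of ZFP57 and TRIM28, a relation worked out mainly in mice.

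The values were FPKM, fragments scaled to transcript length and to the library, so levels of different genes are compared below on the FPKM scale. The RNA was amplified before library preparation, and the annotation behind the transcript lengths is not given. Orders and ratios of different genes are therefore those of FPKM values, and how well they follow transcript numbers was not tested. How many reads stand behind each value is unknown, and with 1 pool per group there was no spread between replicates and no test. Differences are log2 ratios of the injected to the sham value, each with 1 FPKM added, which understates the change of low genes, and they were read against the 7984 genes whose mean reached 1 FPKM. Their median difference was -0.17 on this log2 scale. CDKN1C, the siRNA target, was 14.6 FPKM in injected embryos, against 49.5 FPKM in sham embryos. Symbols listed at 0 made up 33.8% of all symbols in the injected pool and 30.2% in the sham pool, so a value of 0 is given only as listed. Markers of trophectoderm and epiblast were present. All 9 trophectoderm and all 5 epiblast markers were at or above 1 FPKM in both pools, and none of 6 oocyte markers was. Of 6 hypoblast markers, 3 were at or above 1 FPKM in both pools, and so were 3 of 8 cumulus and granulosa markers. The summed level of the trophectoderm markers was 7459 FPKM in injected embryos, against 17565 FPKM in sham embryos, nearly all of it from the keratin genes KRT8 and KRT18. Of these 9 markers, 3 were higher and 6 lower by any amount, 3 of them by 2-fold, with a median log2 difference of -0.69. The epiblast markers summed to 86.0 against 211 FPKM, mostly through POU5F1 at 56.3 against 170 FPKM, the single one of the 5 that was 2-fold lower, and their median was -0.63. The 8 fibroblast and mesenchyme markers summed to 26.0 FPKM in injected embryos, against 2.84 FPKM in sham embryos, mostly through VIM and LUM. Of these 8, 3 were at or above 1 FPKM in the injected and 2 in the sham pool. The 3 averaging at least 1 FPKM were all higher after injection, THY1 and PDGFRB, both far under it, were lower, and COL1A1 was listed at 0 in both. LUM is among genes the study called different in these same libraries, so its direction is no independent evidence. Fewer cells of a type and less RNA per cell cannot be told apart in such pools, and the part of cell composition in the differences below was not tested.

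Among the writers, DNMT3A had by far the highest FPKM in both pools. DNMT1, DNMT3A and UHRF1 averaged at least 1 FPKM, and none of them differed by 2-fold on the log2(FPKM + 1) scale. DNMT3B and DNMT3L averaged less, and at such levels the added 1 FPKM leaves little room for a 2-fold difference. DNMT3A (bosTau7 chromosome 11, 76057763 to 76162228) stood at 17.0 FPKM in injected embryos, against 23.0 FPKM in sham embryos. It stood above 89.7% of all symbols in the injected pool and above 90.4% in the sham pool. Its log2 difference of -0.41 lay in the middle part of the distribution, with 37.7% of the 7984 genes as low or lower. DNMT3B, the other de novo enzyme, on chromosome 13 from 63021062 to 63036537, was 0.743 FPKM in injected embryos, against 0.939 FPKM in sham embryos. The FPKM of the de novo enzymes therefore stood in nearly the same proportion in each pool. DNMT3A was 22.9 times DNMT3B in the injected pool and 24.5 times DNMT3B in the sham pool. DNMT3L, on chromosome 1 from 147568660 to 147583049, was listed at 0 in injected embryos and at 0.205 FPKM in the sham pool. With a level this low in the sham pool and no read counts, no fold was taken for it.

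The maintenance pair differed little between the pools. DNMT1, on chromosome 7 from 13143848 to 13186846, was 1.67 FPKM in injected embryos, against 2.03 FPKM in sham embryos. Its log2 difference of -0.18 was almost that of the median gene, and with both pools scaled to the same total FPKM it was 0.08. UHRF1, on the same chromosome from 17815712 to 17848884, was 4.33 FPKM in injected embryos, against 3.55 FPKM in sham embryos, a log2 difference of 0.23. UHRF1 was thus 2.59 times DNMT1 in the injected pool and 1.75 times DNMT1 in the sham pool, a comparison within each library that no scaling between libraries can change. Without replicates neither this shift nor the difference of either gene can be set against an error. The loci of DNMT1, DNMT3A and UHRF1 each share their interval with 1 further entry, and these entries were listed at 0 in both pools.

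**Figure D1:**
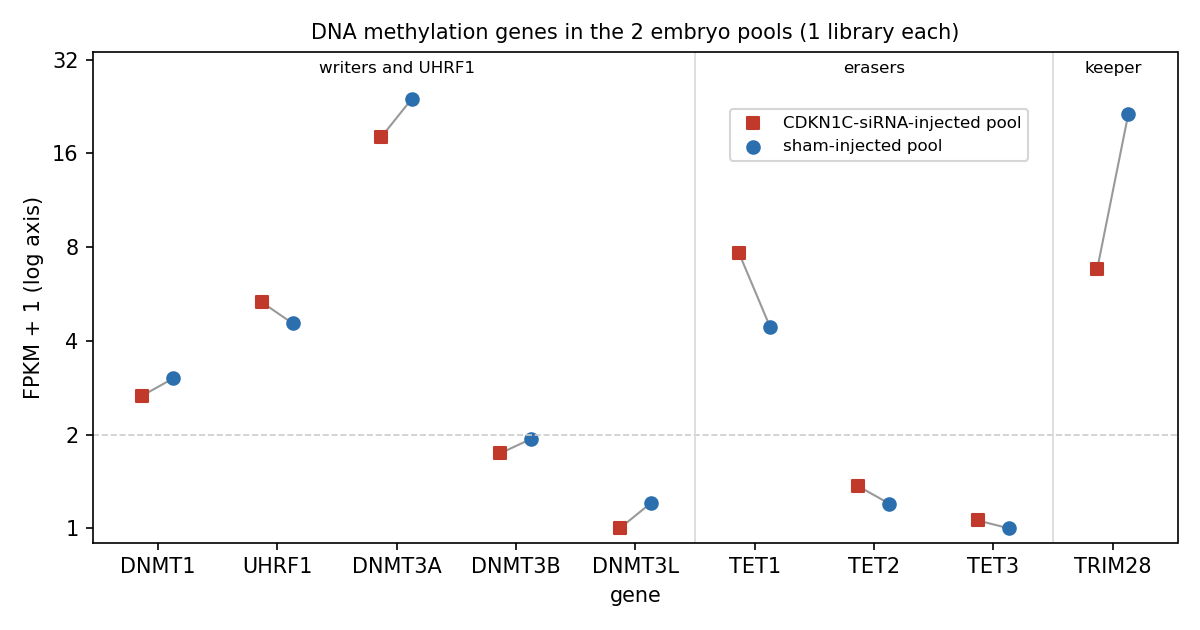
FPKM + 1 (vertical, log axis) of 9 DNA methylation genes (horizontal, ordered by role) in the CDKN1C-siRNA-injected pool (red squares) and the sham-injected pool (blue circles), 1 library each, with a dashed line at 1 FPKM (2 on the axis). TRIM28 is the steepest line, at 5.79 FPKM in the injected and 20.3 FPKM in the sham pool, TET1 slopes the other way, and DNMT3B, DNMT3L, TET2 and TET3 lie below the dashed line in both pools.

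Of the erasers, TET1 had the highest FPKM in both pools, and all 3 TET values were higher in injected embryos as deposited. After a loess fit on locus length, with the all-gene median of -0.17 added back, TET2 was -0.04 and TET3 -0.19 on the log2 scale. Both values are below 0, but TET2 lies above that median and TET3 close to it. TET1, on chromosome 28 from 24088898 to 24204002, was 6.64 FPKM in injected embryos, against 3.43 FPKM in sham embryos, a ratio of 1.94. Its log2 difference of 0.79 was matched or exceeded by 8.82% of the 7984 genes, and it did not reach 2-fold as deposited, but did with both pools scaled to the same total FPKM, at 1.14. TET2, on chromosome 6 from 21328562 to 21373787, was 0.364 FPKM in injected embryos, against 0.199 FPKM in sham embryos. TET3, the enzyme known in mice for oxidation of the paternal genome in the zygote, on chromosome 11 from 10970294 to 11067475, was 0.0599 FPKM in injected embryos and listed at 0 in sham embryos. Both are low, and their differences on the log2(FPKM + 1) scale were 0.19 for TET2 and 0.08 for TET3. TET1 held nearly the same share of the TET genes in each pool, while TET2 and TET3 were too low for their own proportions to be read. TET1 made up 94.0% of their summed FPKM in the injected pool and 94.5% in the sham pool, and it was 18.3 times TET2 in the injected pool and 17.2 times TET2 in the sham pool.

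TRIM28 had the widest difference of the set. TRIM28, the corepressor that KRAB zinc finger proteins such as ZFP57 bring to DNA, lies on bosTau7 chromosome 18, 65761770 to 65767864. Its level was 5.79 FPKM in injected embryos, against 20.3 FPKM in sham embryos, which is 3.51-fold lower. The log2 difference was -1.65, and 251 of the 7984 genes, 3.14%, were as low or lower. In the sham pool its level was near that of DNMT3A, at 0.884 times, and in the injected pool it was 0.340 times DNMT3A. CHMP2A, a subunit of the membrane-remodelling ESCRT machinery, is the next locus and was named for its position after its value was seen. It lies from 65768398 to 65771096 and had 264 FPKM in injected embryos, against 355 FPKM in sham embryos. The shift of TRIM28 was of the same size as that of several other transcripts in these libraries. The level in the injected pool, as a percentage of that in the sham pool, was 28.5% for TRIM28, 29.4% for CDKN1C, 30.9% for the glycolytic gene GAPDH, 32.0% for the ribosomal protein gene RPLP0 and 132% for the actin gene ACTB. The last 3 are the study's candidate reference genes for qRT-PCR, and GAPDH is the one it used. Relative to the FPKM of GAPDH or RPLP0, TRIM28 and the siRNA target CDKN1C were each close to their sham level. Relative to ACTB both were well below it. The study's qRT-PCR, normalised to GAPDH, did show lower CDKN1C in injected blastocysts than in controls. The FPKM ratio to GAPDH thus differs from that measurement, and why was not tested.

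By the size rule of 2-fold on the log2(FPKM + 1) scale, 1 of the 4 members that passed the filter, TRIM28, was lower and 0 were higher. Among all 7984 genes, 15.7% were lower by this rule and 4.92% higher, 20.6% in all, so 1 in 4 is no result about the set. Of the genes averaging 5 FPKM or more, where only DNMT3A and TRIM28 of the members remain, 19.6% were lower by this rule and 4.96% higher, 24.5% in all. The other 4 of the 8 members, DNMT3B, DNMT3L, TET2 and TET3, had means under 1 FPKM. The median difference was -0.30 over the 4 members that passed the filter and -0.18 with TET1 added, against -0.17 over all genes. Giving the pools equal FPKM totals moved the median of all genes to 0.16 and that of the 4 members to 0.02. The share of higher genes among those at least 2-fold apart was 23.8% as deposited, 61.8% after this scaling and 41.1% with the median difference set to 0, and TRIM28 was lower and TET1 higher under each of these scalings.

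**Figure D2:**
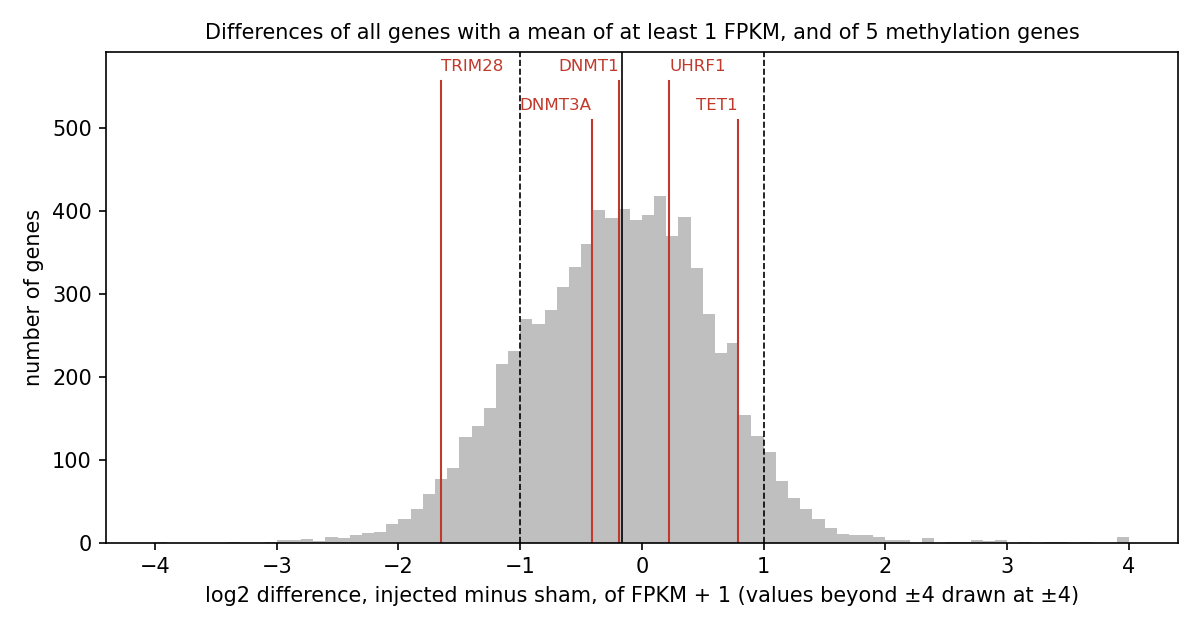
Number of genes (vertical) by log2 difference, injected minus sham, of FPKM + 1 (horizontal) for 7984 genes averaging at least 1 FPKM, with the median of -0.17 as a black line and 2-fold differences as dashed lines. Red lines mark TRIM28 at -1.65 in the lower tail, DNMT3A, DNMT1 and UHRF1 in the middle and TET1 at 0.79 inside the upper 2-fold line.

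The length of a gene and its surroundings moved with the difference between pools, and the members differ in this. The 7984 genes were grouped into 5 bins of nearly equal size by the length of their locus. The median difference was -0.53 in the bin of shortest loci, and -0.39, -0.20, 0.05 and 0.12 in the following bins. TRIM28, with a locus of 6.10 kb, falls into bin 2, where 22.7% of genes passed 2-fold downwards and 4.38% were as low as TRIM28 or lower. TET1, DNMT3A, DNMT1 and UHRF1 have loci of 115, 104, 43.0 and 33.2 kb and fall into the 2 bins of longest loci. In the bin of longest loci, 12.0% of genes were as high as TET1 or higher, while 21.2% were as low as DNMT3A or lower. A loess fit on locus length took a smooth trend off every gene, and the median difference of all genes was added back. After this fit the log2 differences were -1.32 for TRIM28, 0.53 for TET1 and -0.68 for DNMT3A, so that of DNMT3A became wider.

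The number of gene loci nearby moved with the difference as well. The median was 0.24 for genes with the fewest loci within 1 Mb and -0.66 for those with the most. DNMT1 and UHRF1, both with 62 loci within 1 Mb, lie in the most crowded bin, where 11.8% of genes were as high as UHRF1 or higher. TRIM28 has 43 loci within 1 Mb, and 3.63% of the genes in its bin were as low or lower. After a loess fit on this number the log2 differences were 0.24 for DNMT1, 0.65 for UHRF1 and -1.39 for TRIM28, so that the sign for DNMT1 turned. Whether length or crowding has a part in these differences was not tested.

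**Figure D3:**
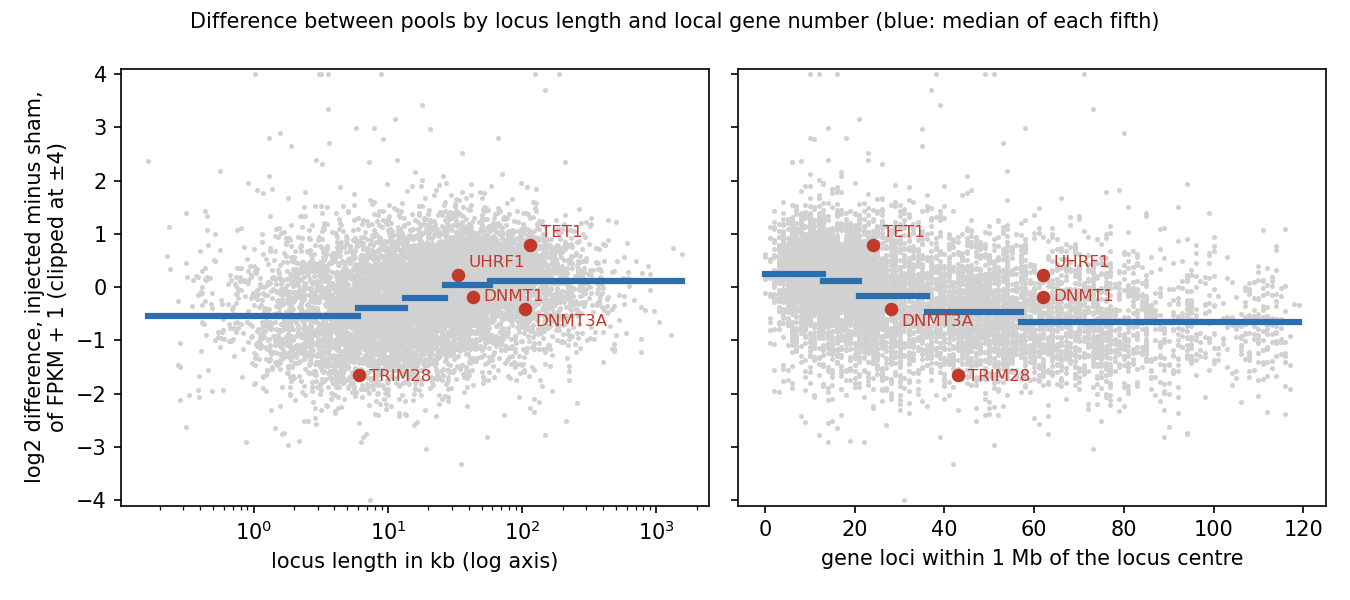
Log2 difference, injected minus sham, of FPKM + 1 (vertical) against locus length in kb (left, log axis) and against the number of gene loci within 1 Mb (right) for 7984 genes (grey), with the median of each of 5 bins (blue) and the 5 methylation genes that average at least 1 FPKM (red). The blue medians climb from -0.53 to 0.12 with length and drop from 0.24 to -0.66 with the number of neighbours, and TRIM28 lies well below the blue line in both panels.

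Genes that work with the members were grouped into 8 lists by role, and 59 of 91 genes with a value averaged 1 FPKM or more. Past 2-fold, 4 of these 59 were higher in injected embryos and 5 lower, where 4.92% of all 7984 genes were higher and 15.7% lower by this rule, and so few genes allow no reading of the shares. Their median difference was -0.06, against -0.17 over all genes. All 7 partners of maintenance methylation were within 2-fold. The outermost were UHRF2, a relative of UHRF1, at 3.34 FPKM in injected embryos, against 1.88 FPKM in sham embryos, and DMAP1, which binds DNMT1, at 8.52 against 11.4 FPKM. Among chromatin factors that guide de novo methylation, 1 of 5 was at least 2-fold lower. This was CXXC1, which binds unmethylated CpG sites and brings in an H3K4 methyltransferase, at 4.92 FPKM in injected embryos, against 20.0 FPKM in sham embryos, 4.06-fold lower.

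Partners of the TET enzymes and genes for excision of oxidised cytosine went both ways. OGT, the O-GlcNAc transferase that binds TET proteins, was 5.64 FPKM in injected embryos, against 1.28 FPKM in sham embryos, and TDG, the glycosylase that removes the most oxidised forms of methylcytosine, was 5.61 against 2.05 FPKM. OGT is in a table of genes that the study drew up from these same libraries, which means that its direction is no independent evidence. The repair scaffold gene XRCC1 was lower after injection, at 4.72 FPKM in injected embryos, against 11.0 FPKM in sham embryos. Past 2-fold, 2 of 15 such genes were higher and 1 lower, and the median was -0.27. Among all 7984 genes 4.92% were higher and 15.7% lower by this rule, so these counts allow no reading of the shares. After the loess fit on loci within 1 Mb, 1 was higher and 1 lower. XRCC1 was within 2-fold under all 3 rescalings and with a pseudocount of 5 FPKM, a pseudocount at which OGT and TDG were within 2-fold too, and neither of these has a mean of 5 FPKM. OGT was 0.849 times TET1 in the injected pool and 0.373 times TET1 in the sham pool, so OGT stood further apart between the pools than TET1 did. The list named for readers of methylated CpG, where not every product need bind it, held 8 genes with a value. Of these, 7 had means under 1 FPKM. The other was MBD3, of the NuRD repressor complex, at 4.97 FPKM in injected embryos, against 10.8 FPKM in sham embryos, just inside 2-fold on the log2(FPKM + 1) scale.

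The partners of TRIM28 went both ways. Of 11 measured above the filter, 6 were higher and 5 lower by any amount, with a median of 0.39, and 2 were higher and 0 lower by 2-fold, counts too small to set against the 4.92% and 15.7% of all genes. After the loess fit on locus length 0 of them passed 2-fold in either direction. ATRX, a chromatin remodeller that acts with TRIM28 at heterochromatin, was 4.50 FPKM in injected embryos, against 1.63 FPKM in sham embryos. MPHOSPH8, the chromodomain protein of the HUSH silencing complex, was 85.7 against 41.6 FPKM. FAM208A, named after its value was seen, was 1.86 against 0.909 FPKM, a ratio of 2.04 that the added 1 FPKM brought within 2-fold. SETDB1, the H3K9 methyltransferase recruited by TRIM28, was 1.49 FPKM in injected embryos, against 1.59 FPKM in sham embryos. SETDB1 and ZNF445, another zinc finger protein that binds imprinting control regions, lie outside the rule for named genes and were added after their values were seen. ZNF445 was listed at 0 in both pools. The loci of ATRX and MPHOSPH8 are 217 and 45.9 kb long, against 6.10 kb for TRIM28.

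**Figure D4:**
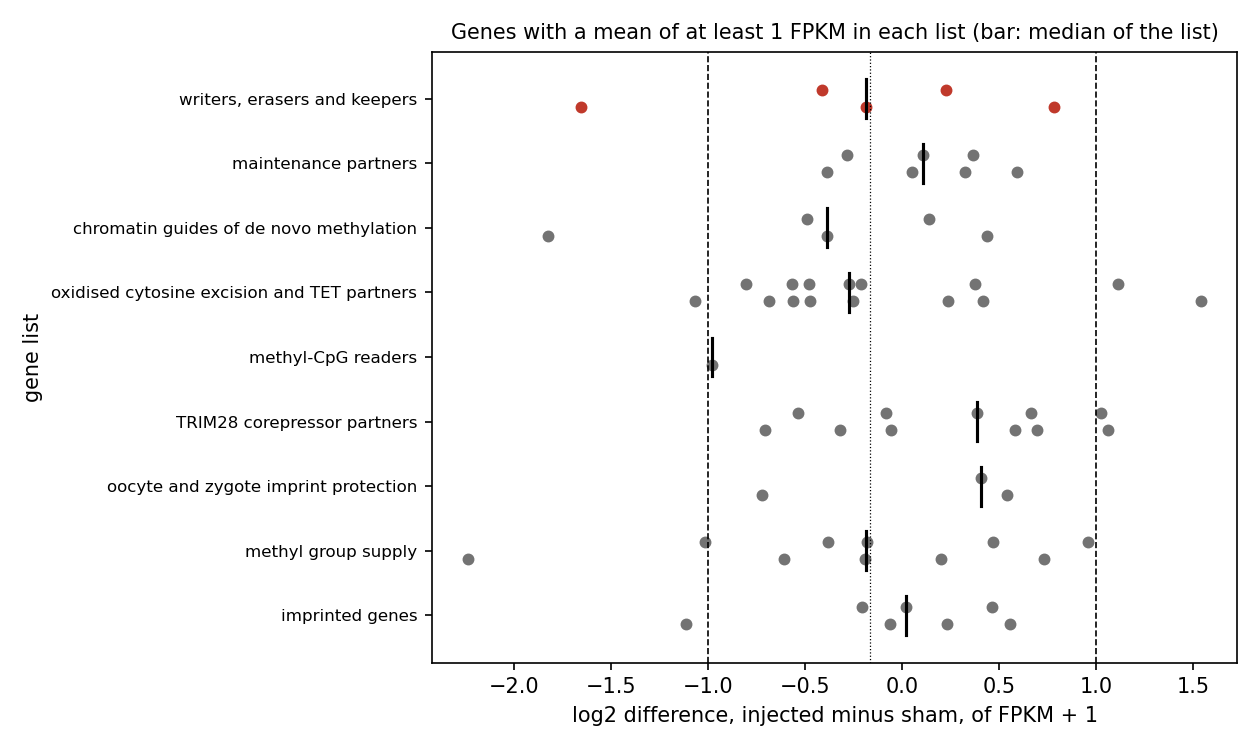
Log2 difference, injected minus sham, of FPKM + 1 (horizontal) of each gene that averages 1 FPKM or more in the set with TET1 (red) and in 8 lists of related genes (grey, vertical), with the list median as a bar, 2-fold differences as dashed lines and the median of all genes as a dotted line. Most points lie between the dashed lines, and the median of the TRIM28 partners is at 0.39 while TRIM28 itself is the red point at -1.65.

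The last 3 lists hold genes that protect imprints in the oocyte and zygote, genes that supply methyl groups and imprinted genes. Of 3 protectors that passed the filter, none differed by 2-fold. Among all 7984 genes 15.7% were lower and 4.92% higher by this rule, so the small counts in these 3 lists allow no reading. CTCF, the insulator protein bound at several imprinted regions, was 12.9 FPKM in injected embryos, against 8.53 FPKM in sham embryos, and OOEP, of the maternal complex beneath the oocyte surface, was 36.6 against 61.0 FPKM. DPPA3, which shields maternal methylation in the mouse zygote and was named here after its value was seen, was 41.0 against 30.6 FPKM. Among 10 genes of methyl group supply, 2 were at least 2-fold lower and 0 higher, against 1 lower and 2 higher with equal FPKM totals, and 1 of each with the median difference set to 0 or with equal upper quartiles. GNMT, which consumes the methyl donor S-adenosylmethionine, was 28.8 FPKM in injected embryos, against 139 FPKM in sham embryos, and MTHFD1, of the folate cycle, was 93.2 against 189 FPKM. Of 7 imprinted genes other than CDKN1C that passed the filter, only PHLDA2 differed by 2-fold on the log2(FPKM + 1) scale. PHLDA2, which lies in the same imprinted cluster as CDKN1C, was 9.44 FPKM in injected embryos, against 21.5 FPKM in sham embryos. NAP1L5, named after its value was seen, was 1.43 against 0.653 FPKM, a ratio of 2.19 that the added 1 FPKM brought within 2-fold. PHLDA2 was within 2-fold with the median difference set to 0, with equal FPKM totals, with a pseudocount of 5 FPKM and after the loess fit on locus length. The median of the 7 was 0.02. Allele-specific expression and DNA methylation cannot be read from these values.

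In order of level, TET1 stood above TRIM28 and UHRF1 in the injected pool and below both in the sham pool. In the injected pool the order was DNMT3A, TET1, TRIM28, UHRF1, DNMT1, DNMT3B, TET2, TET3 and DNMT3L, and in the sham pool it was DNMT3A, TRIM28, UHRF1, TET1, DNMT1, DNMT3B, DNMT3L, TET2 and TET3. Neighbours in these orders, such as UHRF1 at 3.55 FPKM and TET1 at 3.43 FPKM in the sham pool, cannot be separated without replicates. Of the summed FPKM of the 9 genes, TRIM28 made up 15.8% in the injected pool and 37.9% in the sham pool, and TET1 made up 18.1% and 6.39% in the same pools. DNMT3A held 46.5% in the injected pool and 42.8% in the sham pool, the largest share in both.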

How the data were processed

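RNA of each embryo pool was amplified with the MessageAmp II kit before library preparation and sequenced on an Illumina instrument. The authors mapped reads to bosTau7 with TopHat and estimated the deposited FPKM values with Cufflinks 2.0.2, scaled to the upper quartile and corrected for sequence bias. The gene annotation is not given in the sources used here. Loci with the same symbol were summed, and 615 of 22220 loci without a symbol, with 3.37% of FPKM in the injected pool and 3.41% in the sham pool, were left out. Differences were log2 ratios after adding 1 FPKM, over genes whose mean reached 1 FPKM. With 1 library per group no test was run, and the Cuffdiff and GOseq tests of the study were not repeated.

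The members and lists were chosen with earlier results of these data known. Genes named were all members, CDKN1C, 3 reference genes and, of each list, every gene past 2-fold or else its highest and lowest, with exceptions stated. Single cell type markers were named after their values were seen. Alternatives were pseudocounts of 0.1 and 5 FPKM, no filter or a mean of at least 5 FPKM, 3 rescalings, the highest locus per symbol, and folds of 1.5 and 4. Loess fits with a span of 0.3 on locus length and on loci within 1 Mb, and TET1 matched by gene ID, were added after the data were seen. In both loess fits the median difference of all genes was added back once the trend was taken off. Computations used NumPy 2.4.6 and pandas 2.3.3 under Python 3.11.15, statsmodels 0.14.6 for loess, and matplotlib 3.10.9.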

Additional observations from a re-analysis of the deposited data

How the results depend on the processing

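Each group has 1 library of unknown depth, so no replicate could be left out and no interval can be given. No paired analysis was possible because each group has a single pool. Over the alternatives, log2 differences ran from -1.79 to -1.23 for TRIM28 and from 0.47 to 1.14 for TET1. They ran from 0.07 to 0.65 for UHRF1 and from -0.68 to -0.04 for DNMT3A. Changes of pseudocount, filter or locus could not turn a sign, since each of these genes has a single locus. Only the 3 rescalings and the loess fits could, and none of them turned the sign of TRIM28, TET1, UHRF1 or DNMT3A. DNMT1, from -0.40 to 0.24, DNMT3B, TET2 and TET3 took both signs. CDKN1C ranged from -1.76 to -1.32. With a pseudocount of 0.1 FPKM the difference was -1.61 for DNMT3L and 0.68 for TET3, each with a value of 0 in 1 pool. With a mean of at least 5 FPKM, which leaves DNMT3A and TRIM28, the members' median was -1.03. At a fold of 4, 0 members were lower. Of the genes in the 8 related lists, 4 were at least 2-fold higher and 5 lower as reported. With equal FPKM totals in the pools these counts were 8 and 2, with a pseudocount of 5 FPKM 0 and 2, with a fold of 1.5 they were 9 and 11, and with a fold of 4 they were 0 and 1. With a mean of at least 5 FPKM 1 gene was higher, with the median difference set to 0 there were 2 lower, and with the same upper quartile 3 lower. These follow from how each alternative is built. Of all genes, 12.7% were higher and 7.84% lower with equal FPKM totals, against 4.92% and 15.7% as deposited. The shares were 14.9% and 30.5% at a fold of 1.5, and 0.413% and 1.05% at a fold of 4. With a pseudocount of 5 FPKM they were 1.49% and 7.49%.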

Other observations

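Several genes of the same pathways had means under 1 FPKM and so took no part in the counts. They are given as values, and were named after these were seen. The methionine synthase gene MTR was 0.0597 FPKM in injected embryos, against 0.510 FPKM in sham embryos. MTRR, whose product reactivates methionine synthase, was 1.23 against 0.505 FPKM. The methyl-CpG reader gene MBD2 was listed at 0 in injected embryos and at 0.522 FPKM in sham embryos. The following genes were above that mean and within 2-fold on the log2(FPKM + 1) scale. The heterochromatin protein genes CBX1 and CBX5 were 46.0 FPKM in injected embryos, against 28.0 FPKM in sham embryos, and 117 against 73.1 FPKM. MAT2A and MAT2B, the catalytic and regulatory subunits of the enzyme that makes S-adenosylmethionine, were 53.6 against 31.8 FPKM and 10.3 against 4.82 FPKM.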
